A study of Mus musculus with 8 samples.

Results

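The data describe 7 genes of sodium and calcium transport in lens fiber cells (FC): Atp1b1, Atp1b3, Atp2a2, Atp2b1, Atp2b2, Atp2b4 and Slc8a1. They were chosen by name, as the rows of the deposited expression table whose symbol equals one of these names, and all 7 were found among the 35275 genes of the table. RNA was sequenced from lens FC of C57BL/6 mice (C57BL/6J in the study's methods) in 8 libraries, 4 from mice that had breathed cigarette smoke (CS) and 4 from age-matched, untreated control (Ct) mice. The CS-exposed mice were kept in a whole-body smoke chamber from around birth and received smoke for 5 hours a day on 5 days a week over 3.5 months, whereas the untreated Ct mice were kept in the animal facility for the same time. Each library was a pool of the FC of the right eyes of 4 mice, separated from the lens epithelium with forceps, so differences between single mice are averaged within a pool. The pools of each group were male or female, but the labels do not say which library is which.

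The lens has no blood vessels, its inner fibers lose their organelles, and its clarity depends on a low sodium and a low calcium content inside the fibers. The sodium pump (Na,K-ATPase) is built of a catalytic alpha and an accessory beta subunit and carries sodium out of the cell and potassium in, and most of its activity in the lens is known from the epithelium. Calcium is removed by pumps of the endoplasmic reticulum (SERCA, gene family Atp2a), of the Golgi (Atp2c) and of the plasma membrane (PMCA, family Atp2b), and by exchangers that use the sodium gradient made by the sodium pump. Atp1b1 and Atp1b3 encode beta subunits, Atp2a2 encodes the widely expressed SERCA2, Atp2b1, Atp2b2 and Atp2b4 encode PMCA1, PMCA2 and PMCA4, and Slc8a1 encodes the sodium-calcium exchanger NCX1.

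The deposited values are FPKM, which correct for gene length and sequencing depth, so that levels of different genes can be set side by side. From the steps in which low FPKM values rise, the libraries held an estimated 18100000 to 23300000 fragments, with a median of 263 to 359 reads for a tested gene. The 12 lens fiber markers were all well above the minimum for testing, led by the crystallins Cryaa and Crygs, and their mean log2 level lay between 10.31 and 10.41 in all libraries. Markers of the lens epithelium were also present in every library, with a summed level of 517 to 593 FPKM in untreated Ct mice and 511 to 573 FPKM in CS-exposed mice. Most of this sum was Dkk3, at 433 to 477 FPKM, and the other 8 epithelium markers summed to 76.8 to 134 and to 66.3 to 95.4 FPKM. Markers of the rod photoreceptor, a retinal cell, summed to 11.8 to 32.7 FPKM in untreated Ct mice and to 35.8 to 106 FPKM in CS-exposed mice. Markers of the retinal pigment epithelium also did not overlap between the groups, at 1.43 to 2.45 FPKM against 3.62 to 27.0 FPKM. Of the muscle markers, smooth muscle actin Acta2 was abundant, Ckm was at 1.13 to 3.52 FPKM, Tnnt3 and Myocd were at 0, and the endothelial markers summed to no more than 0.490 FPKM.

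The 7 genes spanned a wide range of levels, from a mean of 67.5 FPKM for Atp1b3 to 0.0567 FPKM for Atp2b4. Atp1b3, Atp2a2 and Atp1b1 reached a group mean of 1 FPKM, the minimum for the test, and the other 4 genes did not. None of the 3 tested genes differed between CS-exposed and untreated Ct mice, by limma at an adjusted p under 0.05 or at an unadjusted p under 0.05. Over all 9794 genes tested, 0.0102% passed the adjusted threshold, which was 1 gene, and 4.83% passed the unadjusted one, so a count of 0 among 3 genes is what the background alone would usually give. The median difference of the 3 genes was -0.10 on the log2 scale, beside 0.0043 over all genes tested. The CS-exposed and untreated Ct libraries overlapped for all 7 genes, whereas for 3.08% of the genes tested, and for 2.26% of genes with no minimum level, they did not. In bulk FC a lower level from fewer cells of a type cannot be told apart from less RNA per cell.

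**Figure D1:**
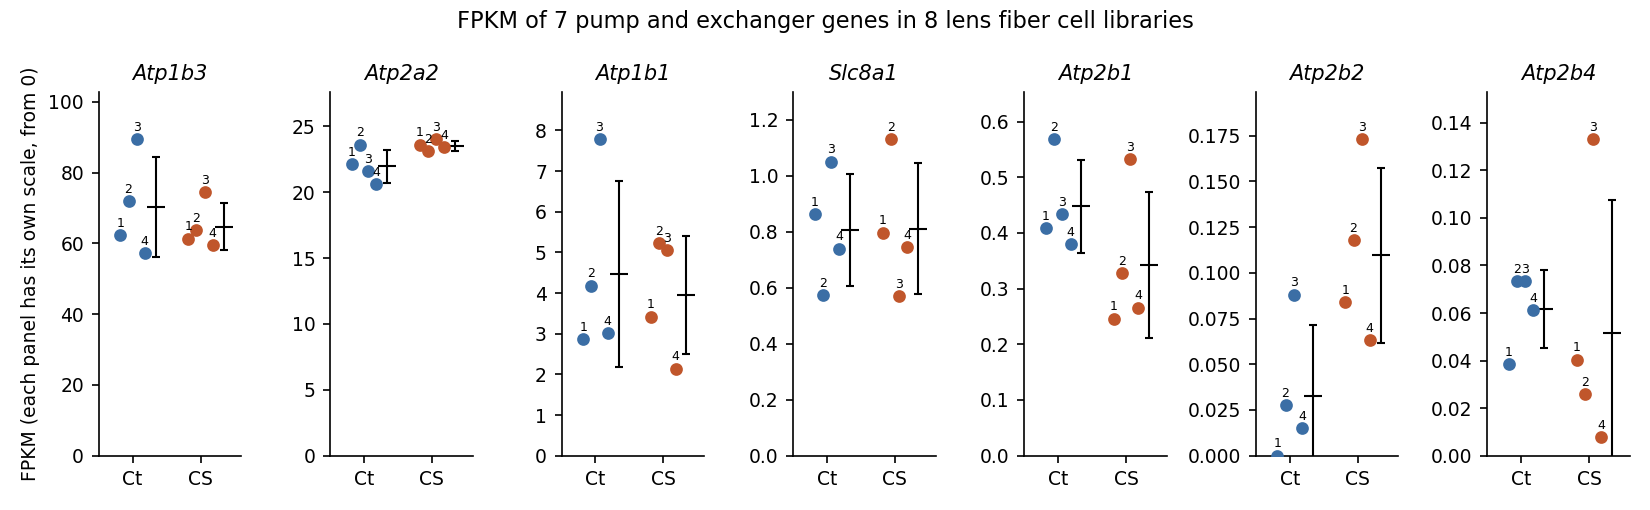
FPKM (y axis, linear, each panel with its own scale from 0) of the 7 genes in 4 libraries of untreated Ct mice (blue) and 4 of CS-exposed mice (orange). Points carry the replicate number, which was not used to pair the groups. The dash with whiskers gives the mean ± SD (n = 4), with whiskers below 0 not shown. The groups overlap in every panel, and replicate 3 of the untreated Ct mice is the highest library for Atp1b3, at 89.4 FPKM, and for Atp1b1, at 7.78 FPKM.

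Atp1b3, the beta-3 subunit of the sodium pump, was the most abundant of the 7 genes. In untreated Ct mice its level was 62.3, 72.0, 89.4 and 57.2 FPKM, and in CS-exposed mice it was 61.3, 63.7, 74.5 and 59.5 FPKM. Replicate 3 was the highest library of either group, and all CS-exposed libraries lay within the range of the untreated Ct libraries. The mean was 70.2 ± 14.2 FPKM (SD, n = 4) in untreated Ct mice and 64.7 ± 6.76 FPKM (SD, n = 4) in CS-exposed mice. The log2 difference (CS minus Ct) was -0.10, with a standard error of 0.12 and a 95% interval from -0.37 to 0.16 (limma, adjusted p = 0.985). The interval runs from 0.775-fold to 1.12-fold, so larger changes in either direction lie outside it. An exact permutation test over the 70 assignments of the libraries gave p = 0.629. Each value rested on 2063 to 4144 reads, and 94.9% of the genes tested had a lower mean level.

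Atp1b1, the beta-1 subunit, was lower and more variable. Its level was 2.87, 4.18, 7.78 and 3.01 FPKM in untreated Ct mice and 3.42, 5.22, 5.05 and 2.14 FPKM in CS-exposed mice. The highest library was again replicate 3 of the untreated Ct mice, at 3.64 times the lowest, replicate 4 of the CS-exposed mice. The means were 4.46 ± 2.29 FPKM (SD, n = 4) and 3.96 ± 1.46 FPKM (SD, n = 4). The log2 difference was -0.13, with a standard error of 0.33 and a 95% interval from -0.85 to 0.58 (limma, adjusted p = 0.989), and the exact permutation test gave p = 0.771. The interval reaches from 0.556-fold to 1.5-fold, which is wide, and 96.1% of the genes tested had a smaller standard error than Atp1b1. The sign of the difference rested on single libraries. Without replicate 3 of the untreated Ct mice it was 0.17 for Atp1b1 and 0.021 for Atp1b3, and without replicate 4 of the CS-exposed mice it was 0.13 for Atp1b1. The gene body of Atp1b1 (GRCm38, chr1:164437109-164458355, minus strand) overlaps Nme7 on the opposite strand, which had a mean of 2.27 FPKM, and the strand setting of the counting is not given in the sources used here.

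Atp1b3 made up 91.6% to 95.4% of the summed FPKM of the 3 beta subunits Atp1b1, Atp1b2 and Atp1b3 in the 8 libraries, and Atp1b1 3.42% to 7.98%. In every library Atp1b3 was between 11.5 and 27.8 times as abundant as Atp1b1.

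Of the beta subunits, Atp1b1 and Atp1b3 were compared over the 8 libraries, and they had a Pearson r of 0.854 (exact permutation p = 0.00618, adjusted p = 0.0247 over 12 relations) and a Spearman rho of 0.81 (exact permutation p = 0.0218, adjusted p = 0.131). When the 2 libraries farthest from the median Atp1b1 level were left out, r was 0.687. Within the groups, after the group means were taken off, r was 0.857.

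The same libraries differed in their markers of the lens epithelium. The epithelium score, the mean log2(FPKM + 0.1) of 9 markers, was 3.02, 3.19, 3.74 and 2.91 in untreated Ct mice and 2.90, 3.02, 3.34 and 2.62 in CS-exposed mice. Replicate 3 was the highest in both groups, and replicate 4 the lowest, and the groups overlapped (exact permutation test, p = 0.371). Foxe3, a transcription factor of the lens epithelium, was at 64.0 FPKM in replicate 3 of the untreated Ct mice and at 17.5 FPKM in replicate 4 of the CS-exposed mice. Atp1b3 followed this score with r = 0.945 (exact permutation p = 0.00109, adjusted p = 0.0131) and rho = 0.905 (exact permutation p = 0.00456, adjusted p = 0.0548), and r was 0.954 without the 2 farthest libraries. After the group means were taken off, Atp1b3 gave r = 0.949 with the epithelium score, 0.739 with the score of rod photoreceptor markers and -0.391 with the lens fiber score. The values within each group, over 4 libraries each, are a description. Within untreated Ct mice r was 0.982 with the epithelium score, 0.698 with the rod score and -0.544 with the lens fiber score, and within CS-exposed mice it was 0.943, 0.959 and 0.915. Whether these relations differ between scores or groups was not tested. Atp1b1 gave r = 0.908 (exact permutation p = 0.00258, adjusted p = 0.0155) and rho = 0.714 (exact permutation p = 0.0576, adjusted p = 0.173), with r = 0.643 without the 2 farthest libraries. These relations were chosen after the values had been seen. None of the 9 epithelium markers was at 0, and 1 of them was lower in CS-exposed mice at an unadjusted p under 0.05, beside 2.08% of all genes tested. Their part in the levels of Atp1b1 and Atp1b3 was not tested.

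**Figure D2:**
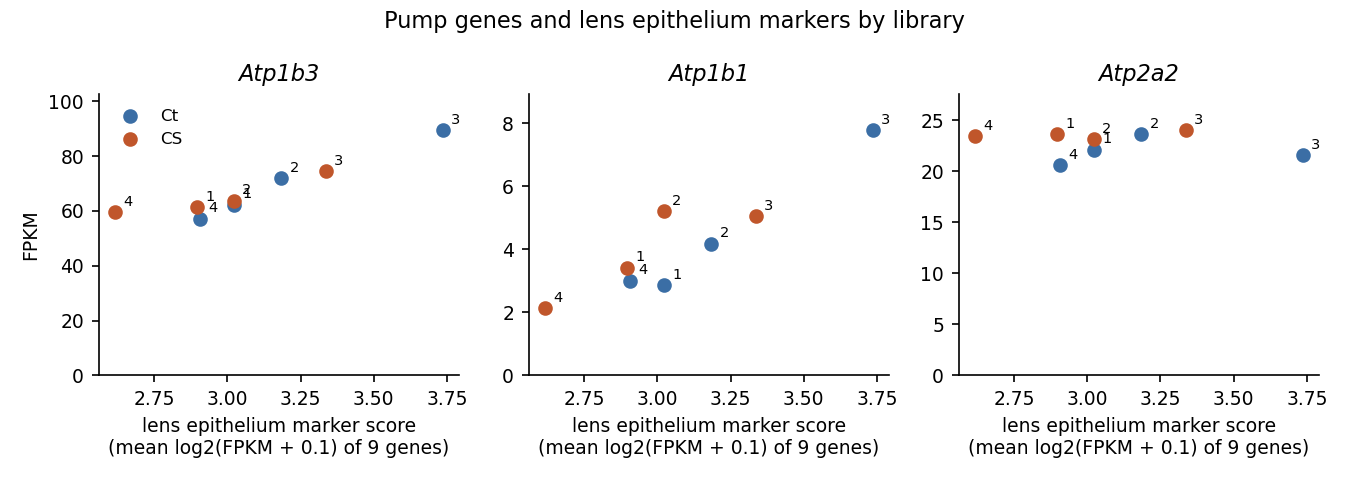
FPKM (y axis, linear from 0) of Atp1b3, Atp1b1 and Atp2a2 against the lens epithelium marker score (x axis, mean log2(FPKM + 0.1) of 9 genes), 1 point a library with its replicate number, blue for untreated Ct mice and orange for CS-exposed mice. Atp1b3 and Atp1b1 are highest in replicate 3 of the untreated Ct mice, where the score is 3.74, whereas Atp2a2 stays between 20.6 and 24.0 FPKM over the whole range of the score.

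The stretches before the starts of Atp1b1 and Atp1b3 are shown because the levels of these genes varied together. The sequences are the 250 bases before the start in RefSeq (GRCm38.p6), read 5′ to 3′ on the minus strand, on which both genes lie. Capitals mark the GC box letters GGGCGG and the CCAAT box letters CCAAT on either strand, so that CCGCCC and ATTGG are the same motifs on the other strand, and no marked motifs overlap. The first lies at chr1:164458356-164458605 and the second at chr9:96364432-96364681, before the outermost of 2 starts in the table.
Atp1b1: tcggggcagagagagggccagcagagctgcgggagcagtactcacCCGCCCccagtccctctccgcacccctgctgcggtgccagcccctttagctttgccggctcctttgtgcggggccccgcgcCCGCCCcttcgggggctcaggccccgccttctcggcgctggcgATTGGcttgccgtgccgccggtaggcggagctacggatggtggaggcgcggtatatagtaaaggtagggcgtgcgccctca
Atp1b3: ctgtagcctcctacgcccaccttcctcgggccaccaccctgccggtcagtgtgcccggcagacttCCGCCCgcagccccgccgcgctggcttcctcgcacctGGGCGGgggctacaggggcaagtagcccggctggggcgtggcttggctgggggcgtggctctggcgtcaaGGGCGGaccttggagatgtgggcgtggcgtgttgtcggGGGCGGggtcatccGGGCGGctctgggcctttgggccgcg
The Atp1b1 stretch held 2 GC boxes and 1 CCAAT box, and the Atp1b3 stretch held 5 GC boxes and 0 CCAAT boxes. The exact letters TATAAA were in neither, and variants of them were not searched for. Of 32851 stretches of the same length, 32.7% held GGGCGG, 33.8% CCAAT and 12.4% TATAAA on either strand. GC content was 70.4% before Atp1b1 and 73.6% before Atp1b3, above the median of 52.4%. A match to these letters is a description of the sequence and not a measured site.

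Atp2a2, the reticulum calcium pump, was the steadiest of the 7 genes. In untreated Ct mice its level was 22.1, 23.6, 21.6 and 20.6 FPKM, and in CS-exposed mice it was 23.6, 23.1, 24.0 and 23.4 FPKM. The highest library was only 1.17 times the lowest, and 6.73% of the genes tested had a smaller standard error. Replicate 2 of the untreated Ct mice reached the level of the CS-exposed mice, and the other untreated Ct libraries lay below all of them. The mean was 22 ± 1.24 FPKM (SD, n = 4) in untreated Ct mice and 23.5 ± 0.397 FPKM (SD, n = 4) in CS-exposed mice. The log2 difference was 0.10, with a standard error of 0.06 and a 95% interval from -0.03 to 0.23 (limma, adjusted p = 0.956), or 0.979-fold to 1.17-fold. The exact permutation test gave p = 0.0857. Leaving out each library in turn gave log2 differences from 0.07 to 0.13.

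Against the epithelium score Atp2a2 gave r = -0.134 (exact permutation p = 0.749, adjusted p = 0.898) and rho = -0.0238 (exact permutation p = 0.977, adjusted p = 0.977), and r was 0.589 without the 2 farthest libraries. Against the lens fiber score it gave r = 0.521 (exact permutation p = 0.189, adjusted p = 0.453) and rho = 0.738 (exact permutation p = 0.0458, adjusted p = 0.173), with r = 0.355 without the 2 farthest libraries. After the group means were taken off, Atp2a2 gave r = 0.204 with the epithelium score, 0.496 with the lens fiber score and 0.397 with the rod score. Whether its relation to the epithelium score differs from the relation of Atp1b1 and Atp1b3 was not tested. Over the 9 calcium pump genes Atp2a2 took 64.4% to 68.1% of the summed FPKM, and Atp2c1, the Golgi pump for calcium and manganese, 29.5% to 33.8%. Atp2c1 stood at 10.9 FPKM over the 8 libraries and did not pass the test (limma, adjusted p = 0.974). The 4 plasma membrane pumps together took 0.968% to 2.29%, and the groups overlapped in each of these shares.

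The remaining 4 genes had a mean under 1 FPKM in both groups. For them the exact permutation test stands first, with the smallest p it can give being 0.0286. A limma fit with no minimum level, over 21019 genes, is given beside it. In that fit 1 of the 7 genes, Atp2b2, had an unadjusted p under 0.05 and 0 had an adjusted p under 0.05, beside 4.10% and 0.00% of all genes. The median difference of the 7 genes was -0.10, beside -0.0083 over all genes, with 5 genes lower in CS-exposed mice and 2 higher.

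Slc8a1, the exchanger NCX1, was at 0.863, 0.574, 1.05 and 0.740 FPKM in untreated Ct mice and at 0.797, 1.13, 0.569 and 0.746 FPKM in CS-exposed mice, from 33 to 76 reads. High and low libraries were found in both groups. The means were 0.806 ± 0.200 and 0.810 ± 0.234 FPKM (SD, n = 4), and the exact permutation test gave p = 0.971. The 95% interval of the difference ran from 0.653-fold to 1.53-fold in the fit with no minimum.

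Most exchanger RNA in lens FC came from another family. Slc8a1 took 1% to 2.29% of the summed FPKM of 9 exchanger genes, whereas Slc24a4, an exchanger that also carries potassium, took 68.6% to 75.9%. Slc24a4 was at 35.7 ± 3.19 FPKM (SD, n = 4) in untreated Ct mice and 38.5 ± 2.84 FPKM (SD, n = 4) in CS-exposed mice (limma, adjusted p = 0.956). It was 29.9 to 73.7 times as abundant as Slc8a1 within a library. Among the 3 genes Slc8a1, Slc8a2 and Slc8a3, Slc8a1 held 74.0% to 96.4%.

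Atp2b1, the plasma membrane pump found in most tissues, was at 0.409, 0.568, 0.434 and 0.380 FPKM in untreated Ct mice and at 0.246, 0.328, 0.533 and 0.266 FPKM in CS-exposed mice. In CS-exposed mice 3 of 4 libraries were below all untreated Ct libraries, and replicate 3 was near the highest of them. The means were 0.448 ± 0.0833 and 0.343 ± 0.131 FPKM (SD, n = 4), and the log2 difference was -0.34 (exact permutation p = 0.171). Without replicate 3 of the CS-exposed mice it was -0.52, with the smallest exact permutation p that is possible, 0.0286. Leaving out this library, the only overlapping one of its group, separates the groups fully, so this p follows from the choice of library. Each value rested on 37 to 80 reads.

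Atp2b2, a plasma membrane pump best known from neurons and hair cells of the inner ear, was at 0, 0.0277, 0.0881 and 0.0151 FPKM in untreated Ct mice and at 0.0841, 0.118, 0.173 and 0.0631 FPKM in CS-exposed mice. These values rest on few reads, 21 over the 4 untreated Ct libraries and 69 over the 4 CS-exposed libraries. The 0 in replicate 1 of the untreated Ct mice allows up to 3 reads, or 0.0206 FPKM, from counting error alone. Replicate 3 of the untreated Ct mice lay within the range of the CS-exposed mice, and the other untreated Ct libraries lay below it. The means were 0.0327 ± 0.0386 and 0.110 ± 0.0479 FPKM (SD, n = 4). The log2 difference was 0.67, with a 95% interval from 0.05 to 1.30 in the fit with no minimum (exact permutation p = 0.0857, limma p = 0.0369, limma adjusted p = 0.906). The size depended on the scale, with 0.10 at a pseudocount of 1, 1.86 at a pseudocount of 0.01 and 2.29 by limma-voom on recovered reads (adjusted p = 0.961). Without replicate 3 of the untreated Ct mice, the only overlapping library of its group, the log2 difference was 0.86 (exact permutation p = 0.0286). This p also follows from the choice of library.

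Atp2b2 took 0%, 4.13%, 14.8% and 2.52% of the summed FPKM of the plasma membrane pumps in untreated Ct mice and 22.7%, 25.0%, 20.6% and 18.7% in CS-exposed mice. The groups did not overlap in this share, which was the case for 1 of the 15 shares and ratios considered here, and it rests on 0 to 26 reads of Atp2b2 a library. Atp2b1 held the larger share in every library, 63.4% to 91.4%, and the groups overlapped. Atp2b4, the pump of red cells and smooth muscle among other tissues, was at 0.0386 to 0.0734 FPKM in untreated Ct mice and at 0.00788 to 0.133 FPKM in CS-exposed mice. These came from 2 to 32 reads, and both the highest and the lowest library were CS-exposed (exact permutation p = 0.629).

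The level of Atp2b2 was set beside that of retinal markers. The rod score, the mean log2(FPKM + 0.1) of 12 markers, was -0.65 to 0.71 in untreated Ct mice and 0.87 to 2.51 in CS-exposed mice (exact permutation p = 0.0286, the smallest possible). Within CS-exposed mice both Atp2b2 and the score were highest in replicate 3, then in replicates 2, 1 and 4, and within untreated Ct mice both were highest in replicate 3. Below that the untreated Ct libraries differed in order, since the rod score ran through replicates 1, 2 and 4 and Atp2b2 through replicates 2, 4 and 1, the last with 0 reads. This order was not particular to the rod score. The lens epithelium score ran through replicates 3, 2, 1 and 4 in both groups, the same order as Atp2b2 in CS-exposed mice. Of the 11 rod markers tested, 10 had an unadjusted p under 0.05 and were higher in CS-exposed mice, beside 2.75% of all genes tested, and none was at 0. In 9 of the 11 the groups did not overlap, beside 1.80% of all genes tested with every CS-exposed library higher. The score of the 8 retinal pigment epithelium markers was -2.15 to -1.79 in untreated Ct mice and -1.44 to 0.26 in CS-exposed mice (exact permutation p = 0.0286), and it was also highest in replicate 3 of each group. Of these markers 4 were tested, all 4 were higher in CS-exposed mice at an unadjusted p under 0.05, and Best1 was at 0 in all libraries. Markers of inner retina neurons summed to 2.13 to 3.10 and to 2.48 to 4.11 FPKM, with Lhx1 at 0 in all libraries (exact permutation p = 0.286 for their score). Most of this was Prkca, and the other 11 summed to 0.277 to 0.924 and to 0.427 to 1.49 FPKM. Among them Calb2 was at 0.281, 0, 0 and 0 FPKM in untreated Ct mice and at 0.464, 0.908, 0.443 and 0.0646 FPKM in CS-exposed mice. The part of these markers in the values of Atp2b2 was not tested, and since the groups do not overlap in the rod and pigment epithelium scores, no correlation over all 8 libraries is given.

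Atp1b2, a low sodium pump gene, also had higher values in CS-exposed mice. It encodes the beta-2 subunit known from neurons and photoreceptors. Atp1b2 was at 0.107 to 0.398 FPKM in untreated Ct mice and at 0.442 to 0.875 FPKM in CS-exposed mice. The groups did not overlap for Atp1b2, beside 1.18% of genes in the fit with no minimum with all CS-exposed libraries above all others (log2 difference 1.04, exact permutation p = 0.0286, limma p = 0.0164, limma adjusted p = 0.906). Within CS-exposed mice Atp1b2 was highest in replicate 4, the library with the lowest rod score of that group. It was also highest in replicate 4 of the untreated Ct mice, and the score of 9 markers of pigmented uvea and ciliary body was highest in replicate 4 of each group, at -1.41 in untreated Ct mice and -1.01 in CS-exposed mice (exact permutation p = 0.943 between the groups). These markers summed to 1.67 to 4.16 FPKM in untreated Ct mice and to 1.24 to 7.08 FPKM in CS-exposed mice. Markers of blood and immune cells summed to 0.284 to 2.21 and to 0.723 to 22.8 FPKM, and their score was highest in replicate 4 of the CS-exposed mice, at -0.85, and lowest in replicate 4 of the untreated Ct mice, at -3.11 (exact permutation p = 0.2 between the groups). No marker of these lists was at 0 in all libraries. Slc24a1, the exchanger of rod photoreceptors, was looked at after its value had been seen, and it was at 0.0965 to 0.175 FPKM in untreated Ct mice and at 0.127 to 0.533 FPKM in CS-exposed mice. None of these genes had an adjusted p under 0.05, and the part of the rod, pigment epithelium, uvea and blood markers in them was not tested.

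**Figure D3:**
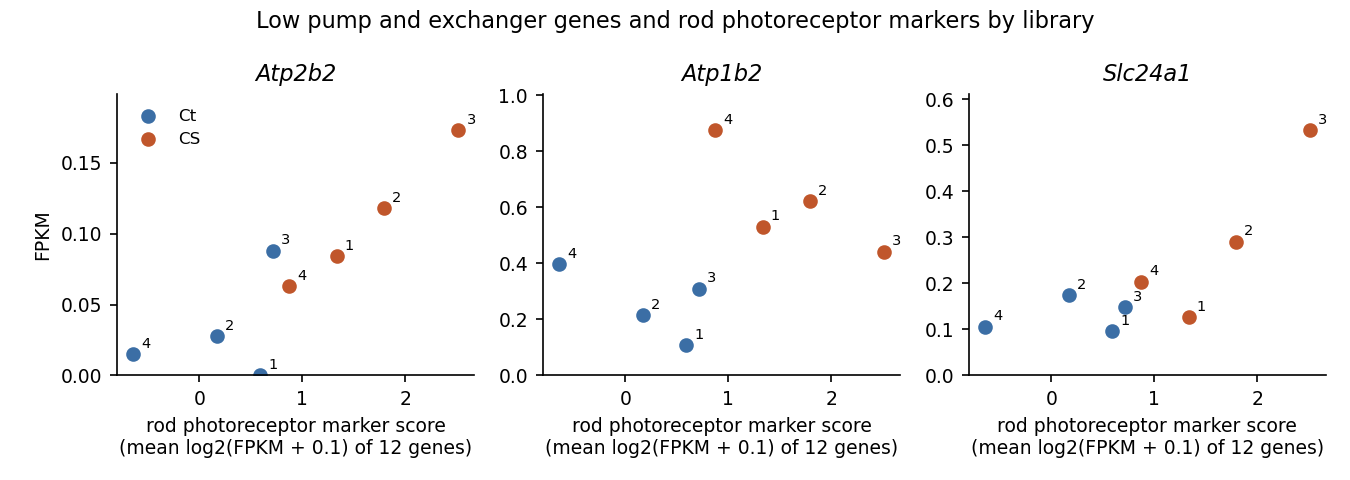
FPKM (y axis, linear from 0) of Atp2b2, Atp1b2 and Slc24a1 against the rod photoreceptor marker score (x axis, mean log2(FPKM + 0.1) of 12 genes), 1 point a library with its replicate number, blue for untreated Ct mice and orange for CS-exposed mice. The CS-exposed libraries lie to the right of all untreated Ct libraries, and replicate 3 of the CS-exposed mice has the highest score, 2.51, and the highest Atp2b2, 0.173 FPKM.

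In order of their means the 7 genes ran Atp1b3, Atp2a2, Atp1b1, Slc8a1, Atp2b1, Atp2b2 and Atp2b4. Each was higher than the next in 8 of 8 libraries, except that Atp2b2 was above Atp2b4 in only 5 of 8, so these do not differ beyond their spread. The lowest library of Atp2a2, 20.6 FPKM, was well above the highest of Atp1b1, 7.78 FPKM. The ranges of Slc8a1 and Atp2b1 nearly met, at 0.569 and 0.568 FPKM.

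**Figure D4:**
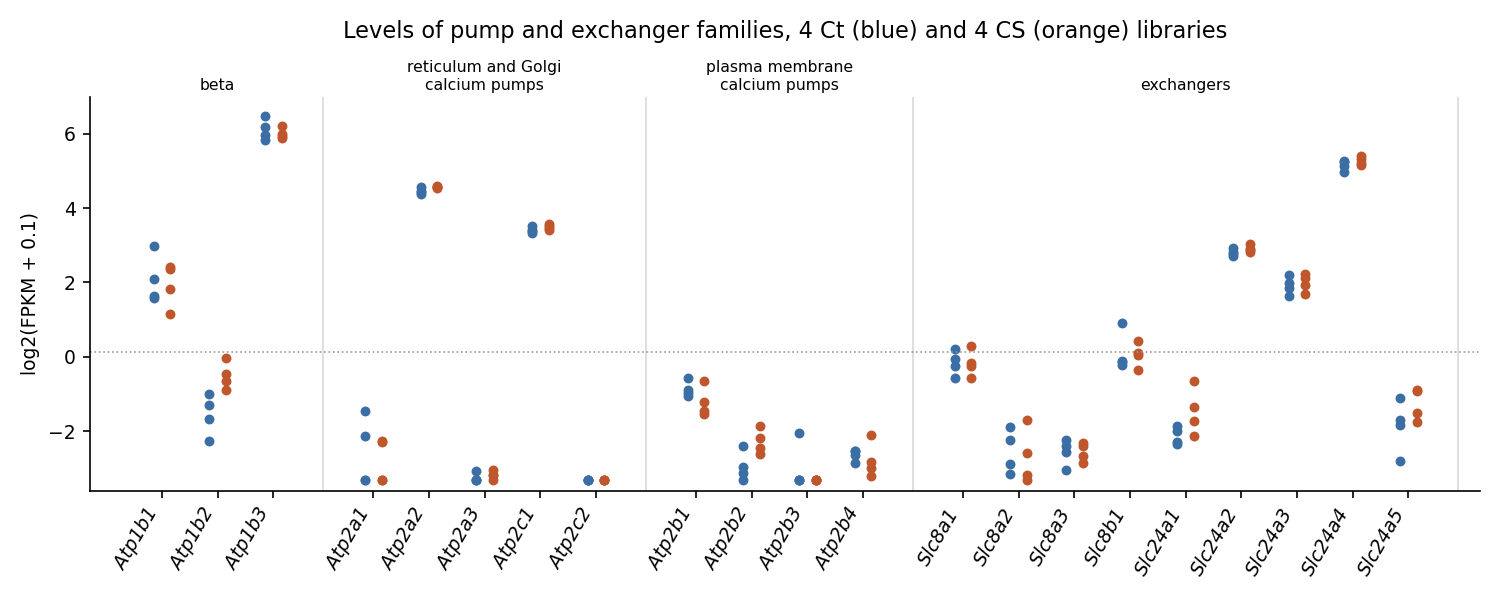
Levels (y axis, log2(FPKM + 0.1)) of the beta subunits of the sodium pump, the calcium pumps and the exchangers in 4 untreated Ct (blue) and 4 CS-exposed (orange) libraries, 1 point a library. The dotted line marks 1 FPKM. Atp1b3 and Slc24a4 lie far above the others of their families, Atp2a2 and Atp2c1 lead the reticulum and Golgi pumps, and the plasma membrane pumps all lie under 1 FPKM.

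The wider pathway was described from 8 lists of sodium and calcium transport with 78 genes, of which 77 were in the table and 40 were tested. At an unadjusted p under 0.05 by limma 0 of the 40 passed, beside 4.83% of all genes, and the smallest p was 0.109. The median difference was 0.0059, and 18 genes had a lower and 22 a higher mean log2 level after CS exposure. In the fit with no minimum 5 of 73 genes had an unadjusted p under 0.05, with 0 of them after adjustment. Of all genes in that fit, 2.17% were higher and 1.93% lower at this threshold. Of the 5 genes 4 were higher in CS-exposed mice, among them Atp1b2, Atp2b2 and Fxyd6, the last a sodium pump regulator that was under 0.2 FPKM in all libraries. The 1 gene that was lower was Fxyd5, a regulator of the same family, which was at 0 in all CS-exposed libraries and at no more than 0.0671 FPKM in untreated Ct mice.

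Of the pathway genes, 15 had a mean of at least 10 FPKM, among them Atp1b3 and Atp2a2. For 10 of the others the log2 differences lay between -0.04 and 0.11, with limma p from 0.137 to 0.967 before adjustment. These included Fxyd1 (phospholemman), a regulator of the sodium pump, at 224 FPKM, and Calm3 and Calm2, which encode calmodulin, an activator of the plasma membrane pumps, at 262 and 61.2 FPKM. Bsg (basigin), a partner protein of the plasma membrane pumps, was at 145 FPKM. Of the mitochondrial calcium uniporter, the subunit gene Smdt1 was at 267 FPKM, and the gatekeeper Micu2 at 41.5 FPKM. The cation channel Trpm3 was at 45.4 FPKM, and the phosphate transporter Slc20a2 at 19.4 FPKM.

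**Figure D5:**
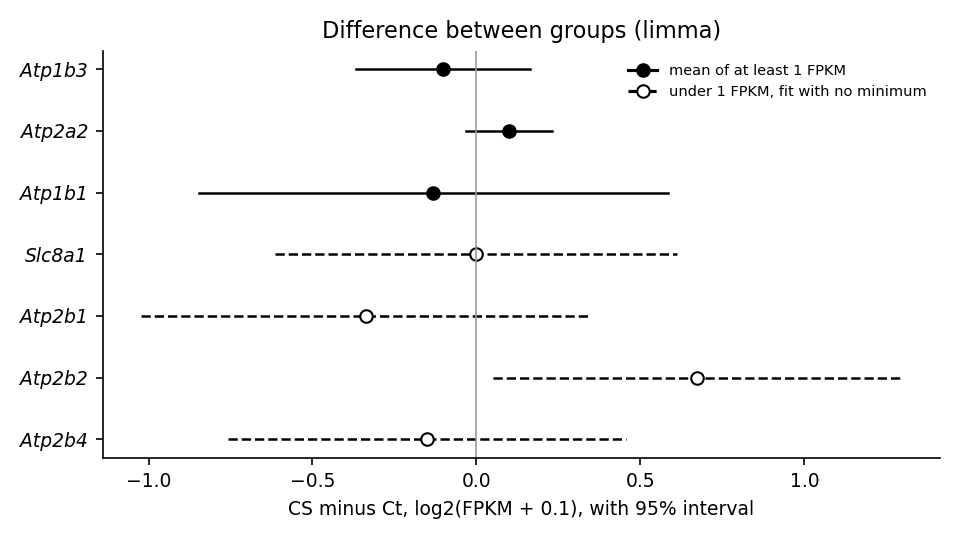
Difference between groups (x axis, CS minus Ct on the log2(FPKM + 0.1) scale, with the 95% interval) for the 7 genes, from the limma fit with the minimum of 1 FPKM (filled points, solid lines) and, for the 4 lower genes, from the fit with no minimum (open points, dashed lines). The interval is narrowest for Atp2a2, from -0.03 to 0.23, and only that of Atp2b2, from 0.05 to 1.30, does not include 0.

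Among 4694 genes at 5 FPKM or more on average, the genes most alike in pattern to each of the 7 were found by Pearson's r of log2(FPKM + 0.1) over the 8 libraries, as a description with no test. For Atp1b3 they were Gbf1 (r = 0.97) and Col4a1 (r = 0.967), and for Atp1b1 Sdha (r = 0.982) and Plekhg3 (r = 0.973). For Atp2a2 they were Pkp2 (r = 0.961) and Lamp1 (r = 0.954). For Slc8a1 they were Ddx6 (r = 0.958) and Idh1 (r = 0.918), for Atp2b1 Snx29 (r = 0.956) and Cyp4f13 (r = 0.921), for Atp2b2 Snx21 (r = 0.954) and BC003331 (r = 0.945), and for Atp2b4 Zswim8 (r = 0.95) and Calcoco1 (r = 0.947). The number of genes with r over 0.9 was 35 for Atp1b1 and 29 for Atp1b3 and between 4 and 13 for the other genes. With 8 libraries and this many genes, high values of r can also arise between unrelated genes.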

How the data were processed

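RNA of lens FC was measured in 8 libraries, grouped by the sample labels into 4 CS and 4 Ct. The authors aligned paired reads to GRCm38 (mm10) with STAR 2.5, used HTSeq 0.6.1 for the counts per gene and deposited FPKM per gene and library, and the annotation release and strand setting are not given in the sources used here. Another 5 columns, with group means and with the log2 fold change, p-value and adjusted p-value that the authors obtained from DESeq2, were not used. Since the values are FPKM, the test was limma 3.58.1 in R 4.3.3 (lmFit, eBayes with a trend) on log2(FPKM + 0.1), two-sided, for all genes whose mean reached 1 FPKM in a group, and p was adjusted by Benjamini-Hochberg over these genes. This scale understates changes of low genes. The fit was tested on simulated data. Single values were also compared by two-sided exact permutation over 70 assignments (Python 3.11.15, numpy 2.4.6, pandas 2.3.3, scipy 1.17.1). Figures used matplotlib 3.10.9. Whole reads were recovered from FPKM steps for 9770 of the 9794 genes (99.8%, within 0.02 reads). Libraries of a group differed by more than sampling noise, with a chi-square per degree of freedom of 5.74 to 11.4.

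Gene coordinates came from GENCODE M21 (GRCm38) and promoter sequences from RefSeq (GRCm38.p6), in which 6 of the 7 genes matched. Named genes are the 7, pathway genes with an unadjusted p under 0.05 or a mean of at least 10 FPKM, the 2 genes most alike to each of the 7 in pattern, and leading markers. Some genes of the lists are counted in them but not reported here by name. Any others were chosen after their values were seen. The 7 genes and all lists were chosen with earlier results of these data known. Alternatives were other pseudocounts, minimum levels, centring, quantile normalization, eBayes without a trend, a replicate block, limma-voom on recovered reads, and leaving out each library. Some were combined with no minimum after seeing the data.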

Additional observations from a re-analysis of the deposited data

How the results depend on the processing

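The differences of Atp2a2, Atp2b1, Atp2b2 and Atp2b4 kept their direction under every alternative run. By leaving out each library in turn, the log2 difference ran from 0.07 to 0.13 for Atp2a2, from -0.30 to 0.17 for Atp1b1, from -0.19 to 0.021 for Atp1b3, from -0.52 to -0.23 for Atp2b1, from 0.54 to 0.86 for Atp2b2, from -0.38 to -0.0066 for Atp2b4 and from -0.16 to 0.14 for Slc8a1. Other settings, mainly the pseudocount and limma-voom on recovered reads, gave 0.10 to 2.29 for Atp2b2, -0.84 to -0.0148 for Atp2b4 and -0.44 to -0.11 for Atp2b1, and for Atp2b2 the unadjusted p was under 0.05 in 5 of 5 limma or limma-voom alternatives but in only 1 of 12 exact permutation alternatives, the one without replicate 3 of the untreated Ct mice. The sign turned without replicate 3 of the untreated Ct mice for Atp1b1 (0.17), Atp1b3 (0.021) and Slc8a1 (0.12), without replicate 4 of the CS-exposed mice for Atp1b1 (0.13) and Slc8a1 (0.023), and without replicate 1 of the untreated Ct mice or replicate 3 of the CS-exposed mice for Slc8a1 (0.037 and 0.14). Slc8a1 also turned with a pseudocount of 1 (0.0011) and with quantile normalization and no minimum (0.024, chosen after seeing the data), from a value near 0 (-0.0011). The cause was not tested. Exact p reached 0.0286 for Atp2b1 without replicate 3 of the CS-exposed mice (-0.52) and for Atp2b2 without replicate 3 of the untreated Ct mice (0.86). In both cases the library left out was the only overlapping one of its group, so this p adds no support. A minimum of 5 FPKM gives no value for Atp1b1 and the 4 lower genes.

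Over all genes, 862 had an unadjusted p under 0.05 with no minimum and 226 with a minimum of 5 FPKM, against 473, as fewer or more genes were tested. Leaving out libraries gave 418 to 525. At an adjusted p under 0.05 there was 1 gene, 0 with no minimum, 0 without a trend in eBayes, 2 with limma-voom on recovered reads, and 0 to 1 without each library (0 without replicate 4 of the untreated Ct mice). For the pathway lists, 5 genes had an unadjusted p under 0.05 with no minimum and 0 to 1 without each library. These were Fxyd1 without replicate 1 of the untreated Ct mice (log2 difference 0.10, adjusted p = 0.907 by limma) and Stim1 without replicate 2 of either group (-0.45 and -0.44, adjusted p = 0.946 and 0.921 by limma). The cause was not tested.

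Same-numbered libraries of the groups had correlations of their deviations from 0.012 to 0.161, with 2 of 4 over 0.1. Their mean was 0.0904, beside -0.0301 for libraries of different numbers. The numbers were not taken as pairs in the main fit, and whether they mark a feature shared by the groups was not tested. With the replicate block 5 genes had an adjusted p under 0.05, none of them a sodium or calcium transport gene. The block cannot change the log2 differences, since every number has a library in each group, but it can change their error. For Atp1b1, Atp1b3 and Atp2a2 the unadjusted limma p was 0.46, 0.145 and 0.168 with the block, beside 0.694, 0.419 and 0.123 in the main fit. Depth limits Atp2b2 and Atp2b4, which had 0 to 32 reads a library.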
